A study of Mus musculus with 8 samples.

Results

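Transcripts of the mitochondrial ribosomal protein genes were followed in regenerating mouse liver whose hepatocytes had been given a hairpin against Tbl1xr1. Members were the protein-coding genes whose symbol is Mrpl or Mrps followed by a number, after the gene identifiers of the deposited tables had been matched to GENCODE mouse release 21. This rule found 78 of 55401 genes, 49 with Mrpl and 29 with Mrps symbols, and all 78 had enough counts to be tested. C57BL/6J mice had received an adeno-associated virus that targets hepatocytes and carried either shTbl1xr1, a short hairpin RNA against Tbl1xr1, or shNC, the control hairpin. The protein that Tbl1xr1 encodes belongs to the NCoR corepressor complex. Both groups were infected 4 weeks before partial hepatectomy, an operation that takes out most of the liver and sets off regrowth, and tissue was collected on day 2, so controls share the virus and the operation. RNA came from whole liver, also from cells that the virus does not target, and each group has 4 libraries. Age and sex are not stated in the labels.

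Mitochondria keep a ribosome of their own, which translates the few messages of mitochondrial DNA into subunits of the respiratory chain and of ATP synthase. Its RNAs come from mitochondrial DNA, but its proteins are encoded in the nucleus, made in the cytosol and imported, and they are assembled into a large (Mrpl) and a small (Mrps) subunit. Some of these proteins descend from bacterial ribosomal proteins, and others exist only in mitochondria. In hepatocytes, which are rich in mitochondria, the mitochondrial ribosome is needed for oxidative phosphorylation, and several of its genes are mutated in human children with combined oxidative phosphorylation deficiency.

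The windows below lie around the start sites of the 3 members with the smallest unadjusted p in each direction, which head the results that follow. Mrps36, Mrps18a and Mrpl14 had the smallest p among members with a positive log2 fold change, and Mrpl3, Mrpl50 and Mrps27 among those with a negative one. Each window holds 250 bases before and 50 after the start in RefSeq on GRCm38.p6, printed on the gene's own strand, and capitals mark matches to motifs of factors known for driving nuclear genes of mitochondria. Mrps36 lies at chr13:100744610-100744909 (minus strand), Mrps18a at chr17:46110754-46111053 (plus), Mrpl14 at chr17:45686099-45686398 (plus), Mrpl3 at chr9:105053018-105053317 (plus), Mrpl50 at chr4:49521034-49521333 (minus) and Mrps27 at chr13:99344536-99344835 (plus).
Mrps36: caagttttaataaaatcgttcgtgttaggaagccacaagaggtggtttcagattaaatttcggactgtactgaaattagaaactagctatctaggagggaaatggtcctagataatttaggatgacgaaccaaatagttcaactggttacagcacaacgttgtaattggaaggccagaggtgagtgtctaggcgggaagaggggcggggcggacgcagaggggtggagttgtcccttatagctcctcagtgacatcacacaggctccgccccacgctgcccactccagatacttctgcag
Mrps18a: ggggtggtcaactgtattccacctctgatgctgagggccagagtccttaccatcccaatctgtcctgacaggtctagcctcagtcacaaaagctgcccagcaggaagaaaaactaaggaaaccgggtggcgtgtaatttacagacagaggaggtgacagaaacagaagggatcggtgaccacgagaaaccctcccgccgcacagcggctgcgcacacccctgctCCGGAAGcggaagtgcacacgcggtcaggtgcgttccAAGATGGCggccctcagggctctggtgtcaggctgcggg
Mrpl14: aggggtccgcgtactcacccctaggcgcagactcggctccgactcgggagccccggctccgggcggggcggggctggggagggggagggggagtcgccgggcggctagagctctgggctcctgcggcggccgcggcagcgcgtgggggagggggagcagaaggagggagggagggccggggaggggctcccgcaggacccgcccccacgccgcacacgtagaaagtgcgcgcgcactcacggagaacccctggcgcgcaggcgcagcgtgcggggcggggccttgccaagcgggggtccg
Mrpl3: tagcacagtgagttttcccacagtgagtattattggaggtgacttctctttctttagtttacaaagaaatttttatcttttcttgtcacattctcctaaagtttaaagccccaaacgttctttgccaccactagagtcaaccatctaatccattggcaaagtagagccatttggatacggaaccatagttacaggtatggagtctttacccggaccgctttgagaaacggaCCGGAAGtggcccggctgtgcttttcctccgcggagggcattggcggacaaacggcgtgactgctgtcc
Mrpl50: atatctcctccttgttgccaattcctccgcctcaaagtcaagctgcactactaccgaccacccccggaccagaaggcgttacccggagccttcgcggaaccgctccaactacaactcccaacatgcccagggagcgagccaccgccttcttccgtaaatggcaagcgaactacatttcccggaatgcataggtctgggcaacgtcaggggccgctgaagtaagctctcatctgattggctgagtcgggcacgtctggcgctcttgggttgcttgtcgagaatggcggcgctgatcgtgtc
Mrps27: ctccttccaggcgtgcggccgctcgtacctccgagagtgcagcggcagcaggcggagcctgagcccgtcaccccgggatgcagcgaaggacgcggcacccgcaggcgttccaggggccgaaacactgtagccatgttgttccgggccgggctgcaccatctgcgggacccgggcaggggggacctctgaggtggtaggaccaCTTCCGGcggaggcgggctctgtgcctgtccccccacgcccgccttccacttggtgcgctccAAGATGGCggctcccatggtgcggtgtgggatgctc
Motifs were searched as exact letters on both strands. The ETS site bound by GABPA (CCGGAAG) was found in 24 of the 69 members that have a window in the table, or 34.8%, against 18.2% of the windows of tested genes and 12.3% of all windows (1 per protein-coding gene, 10012 and 16513 windows). For the YY1 site (AAGATGGC) the shares were 12 members or 17.4%, against 4.604% and 3.27%, and for the NRF1 site (GCGCATGC) 8 members or 11.6%, against 5.384% and 3.77%. An E-box of the kind MYC binds (CACGTG) stood in 5 member windows, or 7.25%, against 10.03% and 8.08%, and TATAAA in 4 or 5.8%, against 7.33% and 12.9%. Among the 6 windows shown, Mrps18a held an ETS match with its first base at -26 from the start site and a YY1 match at 12. Mrps27 held an ETS match on the other strand and a YY1 match, Mrpl3 held an ETS match, and the windows of Mrps36, Mrpl14 and Mrpl50 held none of these letters. Windows with and without a match thus stand on both sides, and a match is a description of letters, not a binding site.

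Libraries differed in ways that bear on the members. The libraries shTbl1xr1 1 and 2 are called shallow here, since they held 10895508 and 10728583 expected counts, against 26976205 and 36720879 in shTbl1xr1 3 and 4, and 25811763 to 27537235 in the 4 shNC libraries. The share of mitochondrially encoded genes was 11.3% and 14.8% in the shallow libraries, 4.52% and 6.26% in shTbl1xr1 3 and 4, and 4.96% to 7.34% in shNC. The first principal component held 59.3% of the variance and set the shallow libraries apart from the other 6. All 9 hepatocyte markers checked passed the filter on low counts, and together they summed to 52922 to 88233 CPM in shTbl1xr1 and 55490 to 72370 in shNC. Tbl1xr1 had 2.38, 2.07, 9.23 and 15.9 CPM in shTbl1xr1 1 to 4, and 27.2, 35.8, 33.6 and 34.6 CPM in shNC 1 to 4, so the groups did not overlap and the shallow libraries were also the lowest (log2 fold change -2.07, SE 0.54, adjusted p = 0.290 by edgeR's quasi-likelihood test). The exact permutation test (two-sided, 70 arrangements) gave the smallest p it can reach, 0.0286. Depth, mitochondrial share and the level of Tbl1xr1 therefore move together between shTbl1xr1 libraries and cannot be told apart. The labels number the replicates but do not say that they are separate animals, so the tests see only how these libraries vary, which may be technical.

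Over all 8 libraries no single member passed edgeR's test and DESeq2 called 1, Mrps36, yet 70 of 78 members had a positive log2 fold change, and the members were high in the shallow libraries and not in the other shTbl1xr1 libraries. CPM here is the count scaled by library size and TMM factor, and a log2 fold change is shTbl1xr1 over shNC. The median member lay at 0.94, 0.82, -0.11 and -0.22 in shTbl1xr1 1 to 4 on the log2 scale relative to the shNC mean, and at 0.09, -0.03, -0.03 and -0.02 in shNC 1 to 4. Medians of all tested genes were between -0.07 and 0.01 in the 8 libraries. Summed over the 78 members, 5363, 4897, 2548 and 2375 CPM were found in shTbl1xr1 1 to 4, against 2939, 2686, 2729 and 2735 CPM in shNC 1 to 4. The first pair of sums lay far above the control range and the second pair below it.

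**Figure D1:**
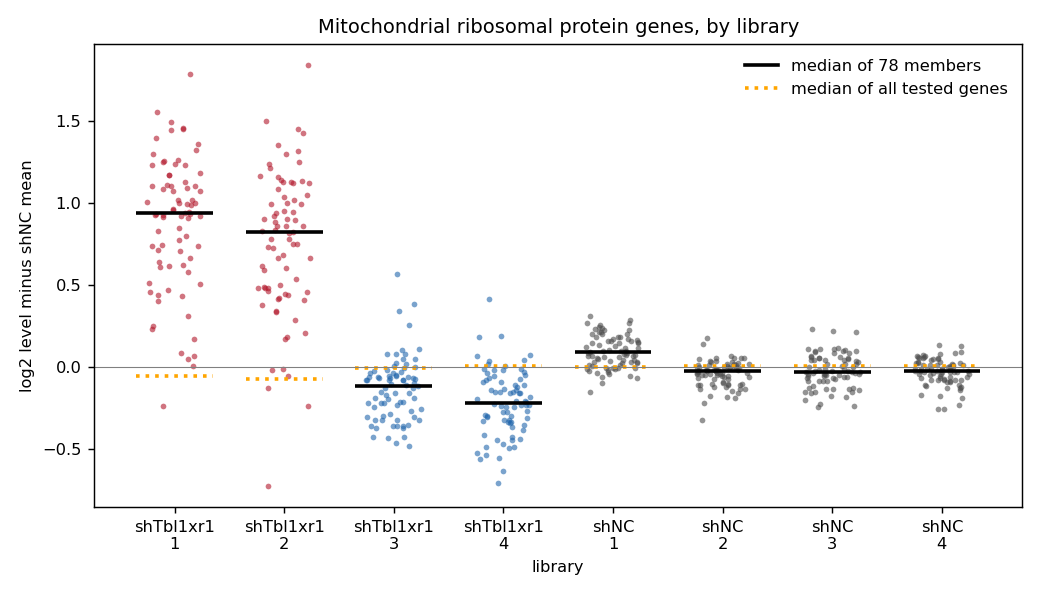
Level of each of the 78 members in each library (points) as the log2 difference from its shNC mean, with the median of the members (black line) and of all tested genes (dotted line). Member medians stand at 0.94 and 0.82 in shTbl1xr1 1 and 2, at -0.11 and -0.22 in shTbl1xr1 3 and 4, and between -0.03 and 0.09 in shNC.

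Library by library, shTbl1xr1 1 lay above every shNC library for 74 members, and shTbl1xr1 2 for 72, where 35.9% of all tested genes did so in each. In shTbl1xr1 3 and 4 only 5 and 4 members lay above every shNC library, against 27.0% and 28.4% of tested genes, and 39 and 54 lay below every one, against 27.6% and 26.8%. Mrps36 was the single member above the control range in all 4 shTbl1xr1 libraries. Mrpl3 was below it in shTbl1xr1 1, and Mrpl1, Mrpl3 and Mrps27 in shTbl1xr1 2, where 41.2% and 41.3% of tested genes were.

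By edgeR's quasi-likelihood test with Benjamini-Hochberg adjustment over 13908 genes, 0 members were higher and 0 lower, where 6 genes, or 0.0431%, were higher and 1, or 0.00719%, lower. At an unadjusted p under 0.05, 10 members (12.8%) were higher and 0 lower, against 7.90% and 3.71% of all tested genes. DESeq2 called 1 member higher, Mrps36 (adjusted p = 0.0309), and 0 lower, against 1.76% and 0.331% of genes. Groups did not overlap for 1 member, higher in shTbl1xr1, and for 0 lower, against 3.88% and 3.37% of tested genes. Positive log2 fold changes were found for 89.7% of members and for 50.6% of tested genes. The median log2 fold change of the members was 0.40 (quartiles 0.23 and 0.58), and that of all tested genes 0.01.

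The size and the sign of this shift depended on the scale. With libraries scaled by size alone the median member stood at 0.00 and the median of all genes at -0.27, so members lay 0.27 above the genes at large, against 0.40 above them with TMM. In the deposited TPM, which divide by gene length and were set on a log2 scale after adding 1, the median member stood at -0.19 and the median tested gene at -0.34, with 15 members positive. Member TPM summed to 5131, 4210, 4988 and 4336 in shTbl1xr1 1 to 4 and to 4898, 4924, 5373 and 5114 in shNC 1 to 4. In these sums the shallow libraries did not stand apart from the other shTbl1xr1 libraries. The median member had a log2 TPM difference of -0.26 in the shallow pair and -0.12 in shTbl1xr1 3 and 4, against -0.72 and 0.04 for all tested genes. Relative to the genes at large, members in TPM thus still lay higher in the shallow pair and lower in the other pair. TMM factors were 0.734 and 0.675 in the shallow libraries, 1.15 and 1.10 in shTbl1xr1 3 and 4, and 1.08 to 1.16 in shNC.

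Set against the 4 shNC libraries, the shallow pair alone showed most members higher in CPM. There 68 members (87.2%) rose and 1 fell by edgeR's quasi-likelihood test with Benjamini-Hochberg adjustment, where 21.5% of 14314 tested genes rose and 21.1% fell. The median member had a log2 fold change of 0.85, against -0.09 for all tested genes, and 75 members were positive, against 45.6% of genes. Groups did not overlap for 71 members higher and 1 lower, against 28.7% and 32.8% of genes. The largest rise was that of Mrps36 (1.80, adjusted p = 0.000171), followed among the members named here by Mrps21 (1.53), Mrpl54 (1.47) and Mrpl14 (1.43), each with adjusted p = 0.000128. Mrpl3 was the 1 member that fell (-0.47, adjusted p = 0.0481), and 9 members did not pass in either direction. This pair was set apart by its depth in these same data, and its libraries may not be separate animals. The p of these edgeR tests therefore measure only how these libraries vary, not the spread between animals.

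In shTbl1xr1 3 and 4 against the same 4 shNC libraries the members lay slightly lower. By the same edgeR test 0 members were higher and 0 lower of 78, where 0.0478% and 0.00% of 14645 genes were. At an unadjusted p under 0.05, 1 member was higher and 12 (15.4%) were lower, against 6.73% and 4.62% of genes. Groups did not overlap for 1 member higher and for 30 members (38.5%) lower, against 10.4% and 10.3% of genes. The median log2 fold change was -0.18, against 0.00 for all tested genes, and 6 members were positive, against 50.4% of genes, namely Mrpl14, Mrps9, Mrps11, Mrps15, Mrps18a and Mrps36. Mrpl50 had the smallest p among the members lower in this pair (log2 fold change -0.43, adjusted p = 0.288). Both pairs were set against the same control libraries, so their values stand side by side and no relation between them is drawn, and the difference between the pairs was not tested.

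**Figure D2:**
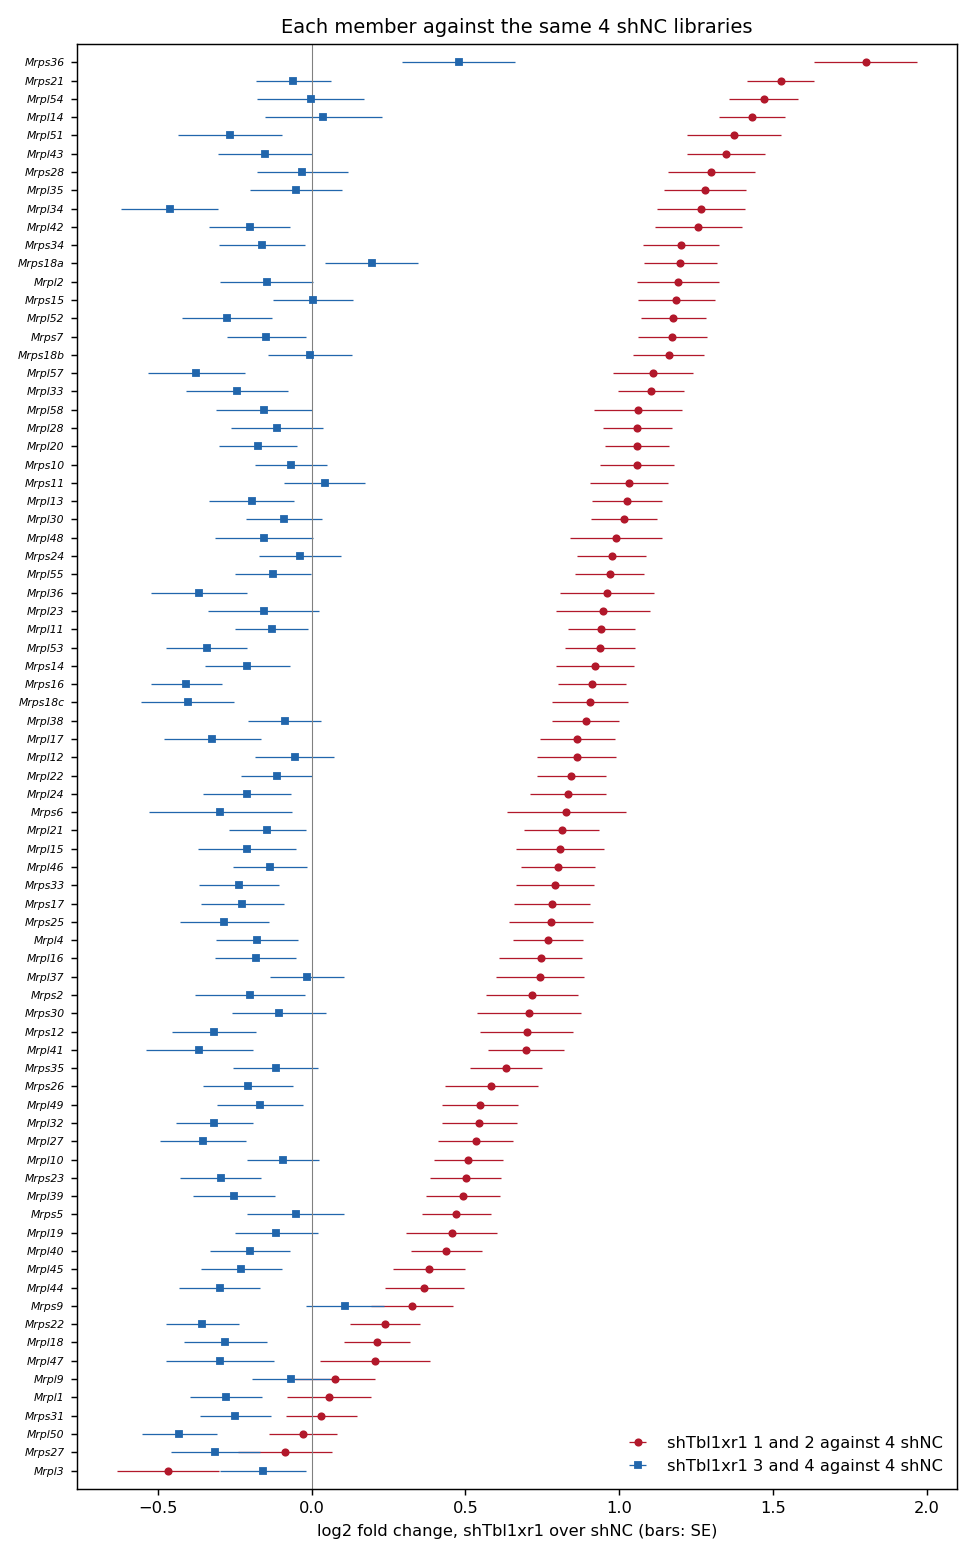
Log2 fold change (x axis, with its SE) of each member (y axis) in shTbl1xr1 1 and 2 (red circles) and in shTbl1xr1 3 and 4 (blue squares) against the same 4 shNC libraries. Red points run from -0.47 (Mrpl3) to 1.80 (Mrps36), while 72 of the 78 blue squares lie below 0.

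Members have short transcripts, and in these libraries fold change went with length. Their median length in the deposited tables was 1067 bases, from 420 in Mrpl52 to 3732 in Mrpl19, against 2420 bases for tested genes, and 75 of 78 were shorter than that. Among genes under 1000 bases, the 34 members had a median log2 fold change of 0.55 over all libraries, and all 1489 tested genes of that size 0.47. Between 1000 and 2000 bases the medians were 0.36 for 36 members and 0.16 for 3933 genes, and from 2000 bases on 0.18 for 8 members and -0.09 for 8486 genes. Short members thus lay close to other short genes, and longer members lay further from theirs.

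In the shallow pair the medians of the same length classes were 0.996, 0.76 and 0.47 for members and 0.91, 0.34 and -0.36 for all tested genes. In shTbl1xr1 3 and 4 they were -0.19, -0.16 and -0.21 for members and -0.15, -0.07 and 0.05 for all tested genes. Across the 78 members, which share the same libraries, Spearman's rho between length and log2 fold change was -0.52 over all libraries, -0.56 in the shallow pair and 0.04 in the deeper pair. With the length trend taken out of each library the median member had 0.09 and the median gene 0.02. In that fit 51 members (65.4%) were positive, against 52.4% of genes. At an unadjusted p under 0.05 there were then 7 members higher and 3 lower, against 10.3% and 5.10% of genes. What part of the shift length accounts for was not tested beyond this fit.

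**Figure D3:**
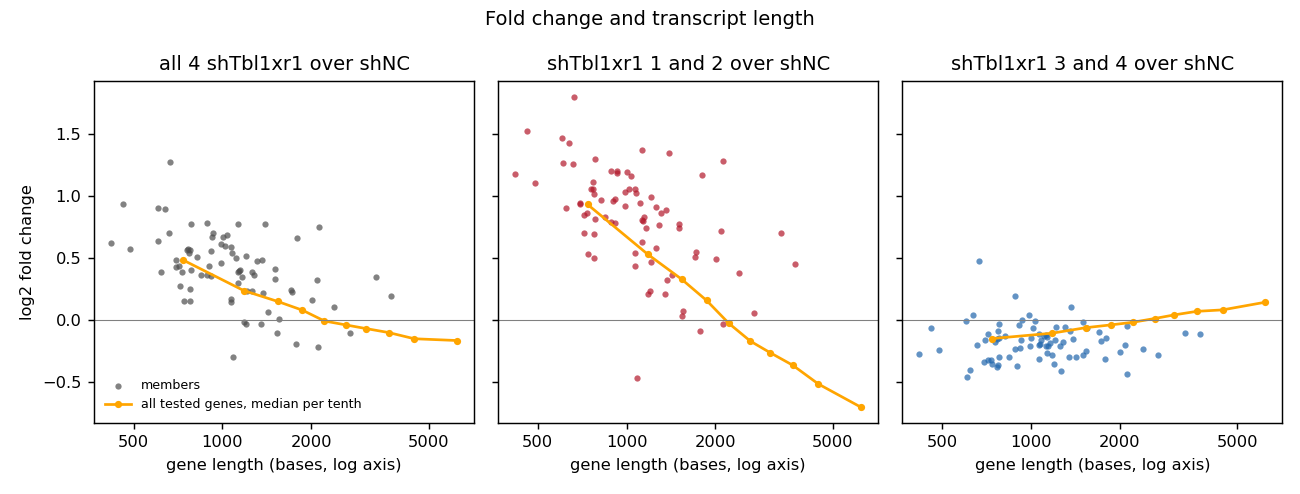
Log2 fold change over shNC (y axis) against gene length in bases (log x axis) for the 78 members (points) and as the median of all tested genes per length class (orange line), for all 4 shTbl1xr1 libraries, for replicates 1 and 2 and for replicates 3 and 4. Among genes under 1000 bases the shallow-pair medians are 0.996 for members and 0.91 for all tested genes, and in the deeper pair -0.19 and -0.15.

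Mrps36 had the largest difference of the family. Despite its symbol, the human protein is not found in the mitochondrial ribosome and acts as an adaptor of the 2-oxoglutarate dehydrogenase complex of the citric acid cycle. Mrps36 (ENSMUSG00000061474.11, chr13:100735955-100744659, minus strand, mm10) had 32.5, 33.8, 13.9 and 12.5 CPM in shTbl1xr1 1 to 4, against 10.6, 7.47, 10.9 and 8.92 CPM in shNC 1 to 4. All 4 shTbl1xr1 libraries were above all shNC libraries, the shallow pair by far the most. The means were 23.2 ± 11.5 CPM in shTbl1xr1 and 9.49 ± 1.61 CPM in shNC (SD, n = 4 each), on 245 to 506 and 229 to 329 counts per library. By edgeR's quasi-likelihood test the log2 fold change was 1.27 (SE 0.35, unadjusted p = 0.00454, adjusted p = 0.308), and it ranged from 1.03 to 1.48 with 1 library left out.

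Mrps36 stayed positive in each comparison and on each scale shown here. Its log2 fold change was 1.80 in the shallow pair, 0.48 in shTbl1xr1 3 and 4 (edgeR unadjusted p = 0.0312, adjusted p = 0.399), 0.84 with libraries scaled by size alone, 0.75 with the length trend removed and 0.58 with 1 surrogate variable. In deposited TPM it had 45.4, 42.0, 43.2 and 38.7 in shTbl1xr1 1 to 4, against 29.2, 23.0, 35.3 and 27.7 in shNC 1 to 4. The 4 shTbl1xr1 libraries lay close together and above every shNC library on that scale. Its 3 annotated pseudogenes held 0 to 2 counts per library. Counts of Mrps36 were not whole in 5 libraries, a possible sign of reads shared with other genes, so its values are less certain.

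Large-subunit proteins with a bacterial counterpart formed the biggest role, with 30 members, of which 26 had positive log2 fold changes. Their median was 0.42 over all libraries, 0.85 in the shallow pair and -0.17 in shTbl1xr1 3 and 4. By the edgeR test 25 of them rose and 1 fell in the shallow pair, against 21.5% and 21.1% of all tested genes, and 0 passed over all libraries. Mrpl14, a core protein near the interface of the subunits, and Mrpl12, whose bacterial relative forms the stalk that recruits translation factors, lay on the higher side, and Mrpl3 and Mrpl1 on the lower side.

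Mrpl14 (ENSMUSG00000023939.7, chr17:45686322-45698495, plus strand) had 136, 134, 63.1 and 39.3 CPM in shTbl1xr1 1 to 4, against 47.6, 47.3, 51.7 and 52.7 CPM in shNC 1 to 4. Of the shTbl1xr1 libraries 3 were above the control range and shTbl1xr1 4 below it, so the groups overlapped (log2 fold change 0.89, SE 0.36, edgeR adjusted p = 0.412). Its exons overlap those of Tmem63b on the other strand, and the strand setting of the counting is not given in the sources used here. Mrpl12 (ENSMUSG00000039640.7) had 256, 211, 122 and 126 CPM in shTbl1xr1, against 131, 117, 126 and 140 CPM in shNC, so that shTbl1xr1 3 and 4 lay within the control range (log2 fold change 0.48, SE 0.26, edgeR adjusted p = 0.463). Mrpl35, another core protein of the large subunit, had 54.0, 51.2, 19.3 and 22.6 CPM in shTbl1xr1, against 24.7, 20.7, 22.2 and 18.9 CPM in shNC. Its log2 fold change of 0.75 over all libraries was almost the same with the length trend removed (0.73), at a length of 2121 bases.

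Mrpl3 is a core protein of the large subunit, and its human counterpart is a disease gene for combined oxidative phosphorylation deficiency. Mrpl3 (ENSMUSG00000032563.16, chr9:105053239-105079888, plus strand) had 18.3, 13.0, 17.5 and 21.2 CPM in shTbl1xr1 1 to 4, against 23.6, 19.8, 21.4 and 21.6 CPM in shNC 1 to 4. It was lowest in shTbl1xr1 2, also below the control range in shTbl1xr1 1 and 3, and within it in shTbl1xr1 4. The log2 fold change was -0.30 (SE 0.17, edgeR adjusted p = 0.481), with -0.47 in the shallow pair and -0.16 in shTbl1xr1 3 and 4. Mrpl1 had log2 fold changes of -0.10, 0.06 and -0.28 in these 3 comparisons, Mrpl18 of -0.01, 0.21 and -0.28, and Mrpl47 of -0.03, 0.21 and -0.30. For these last 3 genes the sign differed between the pairs, and exons of Mrpl18 and Mrpl47 overlap tested genes on the other strand.

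Large-subunit proteins listed as mitochondria-specific numbered 21, with 20 positive log2 fold changes and medians of 0.43 over all libraries, 0.89 in the shallow pair and -0.20 in shTbl1xr1 3 and 4. This list holds Mrps18a, whose paralog Mrps18c is listed with a bacterial counterpart, so not every protein in it lacks a bacterial relative. With the shallow pair, 20 of the 21 rose and 0 fell by the edgeR test, against 21.5% and 21.1% of all tested genes. Mrpl54 had 90.6, 88.1, 38.4 and 25.9 CPM in shTbl1xr1 1 to 4, against 34.5, 31.7, 29.1 and 33.5 CPM in shNC 1 to 4. Like Mrpl14 it was above the control range in 3 shTbl1xr1 libraries and below it in shTbl1xr1 4 (log2 fold change 0.91, SE 0.37, edgeR adjusted p = 0.412).

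Mrpl58 is a peptidyl-tRNA hydrolase built into the large subunit that frees stalled ribosomes. It had 86.1, 60.2, 36.9 and 26.0 CPM in shTbl1xr1 1 to 4 against a narrow 34.4 to 35.6 CPM in shNC, with 3 shTbl1xr1 libraries above and shTbl1xr1 4 below that range (log2 fold change 0.57, SE 0.32, edgeR adjusted p = 0.475). Mrpl50 (ENSMUSG00000044018.3, chr4:49512596-49521093, minus strand) had 61.2, 58.8, 47.5 and 43.2 CPM in shTbl1xr1, against 65.1, 59.9, 58.7 and 60.4 CPM in shNC. Here the shallow libraries lay within the control range and shTbl1xr1 3 and 4 well below it. Its log2 fold change was -0.22 over all libraries (SE 0.15, edgeR adjusted p = 0.548), -0.03 in the shallow pair and -0.43 in the deeper pair. Mrps30, which despite its symbol sits in the large subunit, had log2 fold changes of 0.35, 0.71 and -0.11.

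All 16 small-subunit proteins with a bacterial counterpart had positive log2 fold changes, with medians of 0.42 over all libraries, 0.92 in the shallow pair and -0.11 in shTbl1xr1 3 and 4. Of these, 15 rose in the shallow pair and 0 fell by the edgeR test, against 21.5% and 21.1% of all tested genes. Mrps21 had 109, 104, 36.8 and 34.1 CPM in shTbl1xr1 1 to 4, against 38.0, 36.5, 39.3 and 33.8 CPM in shNC 1 to 4. The shallow libraries were far above the controls and the other pair lay within their range (log2 fold change 0.94, SE 0.38, edgeR adjusted p = 0.412). Mrps15 showed the same order with 55.8, 51.3, 23.7 and 23.5 CPM in shTbl1xr1, against 26.6, 22.6, 22.4 and 22.4 CPM in shNC (log2 fold change 0.70, SE 0.30, edgeR adjusted p = 0.416). Mrps11 had log2 fold changes of 0.61, 1.03 and 0.04 over all libraries, in the shallow pair and in the deeper pair. Its exons overlap those of another member, Mrpl46, on the other strand, so the counts of these neighbours may not be independent. Mrps28, the other member at an unadjusted p under 0.05 that the rule did not name, had 0.77, 1.299 and -0.03.

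Small-subunit proteins listed as mitochondria-specific, among them Mrps18b, another paralog of Mrps18c, lay lowest, with 7 of 10 log2 fold changes positive. Their medians were 0.26 over all libraries, 0.61 in the shallow pair and -0.24 in shTbl1xr1 3 and 4. Of the 10, 7 rose and 0 fell in the shallow pair by the edgeR test, against 21.5% and 21.1% of all tested genes. In the deeper pair 0 of the 10 were positive. Mrps27, a pentatricopeptide repeat protein (chr13:99344786-99415562, plus strand, ENSMUSG00000041632.7), had 33.0, 26.6, 24.5 and 26.5 CPM in shTbl1xr1 1 to 4, against 28.3, 31.3, 36.9 and 30.0 CPM in shNC 1 to 4. Of the shTbl1xr1 libraries 3 lay below the control range and shTbl1xr1 1 within it (log2 fold change -0.20, SE 0.15, edgeR adjusted p = 0.583). Mrps31 had 31.6, 29.5, 24.1 and 26.3 CPM in shTbl1xr1 and 29.1 to 31.0 CPM in shNC, with a log2 fold change of -0.10 (SE 0.14). Mrps22, a disease gene in humans, had log2 fold changes of -0.03, 0.24 and -0.36 over all libraries, in the shallow pair and in the deeper pair.

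**Figure D4:**
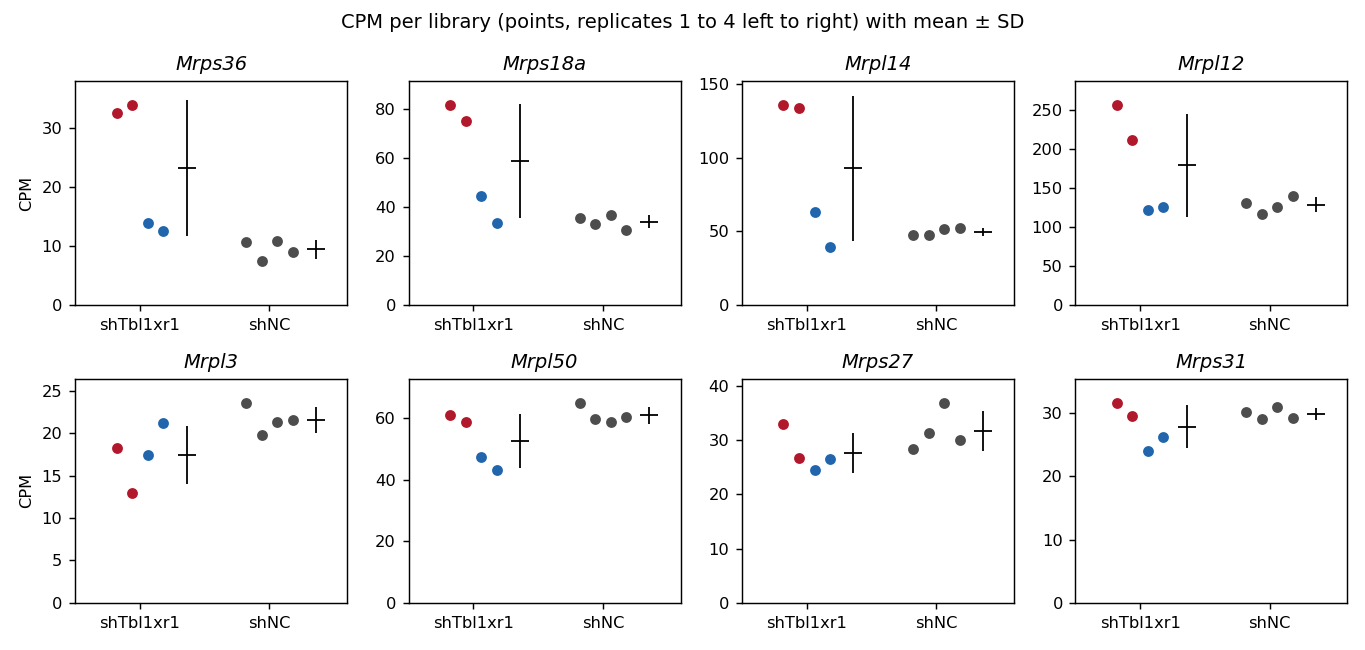
CPM (y axis, from 0) of 4 members with positive and 4 with negative log2 fold changes in the 4 shTbl1xr1 libraries (replicates 1 and 2 red, 3 and 4 blue) and the 4 shNC libraries (grey), with the mean ± SD of each group beside the points. Mrps36 is the one plotted member whose groups do not overlap, at 12.5 CPM or more in shTbl1xr1 and 10.9 CPM or less in shNC.

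Mrps18a, Mrps18b and Mrps18c are paralogs, and their proteins sit at different places of the mitochondrial ribosome. Mrps18a, whose human counterpart is part of the large subunit, had 81.6, 74.9, 44.3 and 33.6 CPM in shTbl1xr1 1 to 4, against 35.6, 33.0, 36.6 and 30.7 CPM in shNC 1 to 4 (chr17:46110986-46128910, plus strand, ENSMUSG00000023967.9). The first 3 libraries were above the control range and shTbl1xr1 4 was within it (log2 fold change 0.78, SE 0.27, edgeR adjusted p = 0.382). Mrps18b, a small-subunit protein, had 97.2, 96.5, 46.6 and 39.6 CPM in shTbl1xr1, against 48.5, 42.2, 40.5 and 41.5 CPM in shNC (log2 fold change 0.69, SE 0.30, edgeR adjusted p = 0.422). Mrps18c, also a small-subunit protein, had 50.9, 50.1, 22.6 and 18.2 CPM in shTbl1xr1, against 29.9, 27.9, 24.5 and 25.4 CPM in shNC. Both deeper shTbl1xr1 libraries were below every control for Mrps18c, which gave a log2 fold change of 0.38 over all libraries (SE 0.33, edgeR adjusted p = 0.608) and of -0.40 in the deeper pair. The paralogs thus had 0.20, -0.01 and -0.40 in shTbl1xr1 3 and 4, and 1.20, 1.16 and 0.90 in the shallow pair, for Mrps18a, Mrps18b and Mrps18c in this order, and differences between paralogs were not tested.

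Per gene length, members spanned a wide range of levels. In deposited TPM, Mrpl52 was the highest at 277 ± 45.6 in shTbl1xr1 and 297 ± 21.4 in shNC, before Mrps21 at 242 ± 44.9 and 208 ± 24.1, Mrpl17 at 144 ± 26.8 and 174 ± 8.26, Mrpl14 at 183 ± 37.3 and 159 ± 18.8, and Mrpl12 at 142 ± 21.6 and 154 ± 15.4 (SD, n = 4 each), in the order of shNC. The lowest was Mrpl19 at 5.55 ± 2.41 TPM in shTbl1xr1 and 6.32 ± 0.450 in shNC. Mrps30, Mrpl47, Mrpl35 and Mrps9 followed, at 10.3 ± 2.10, 10.1 ± 0.324, 16.3 ± 2.85 and 13.5 ± 4.38 TPM in shTbl1xr1 and at 11.8 ± 0.792, 14.1 ± 2.08, 14.4 ± 1.24 and 15.4 ± 0.867 TPM in shNC. Mrpl17, Mrpl14 and Mrpl12 lie within their spread of each other in shNC, as do Mrpl47, Mrpl35 and Mrps9. Subunits of 1 particle therefore differed far more in transcript level than the groups did.

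Members varied little among shNC libraries and widely among shTbl1xr1 libraries. The median coefficient of variation of member CPM was 41.0% (8.01% to 62.0%) in shTbl1xr1 and 7.26% (1.07% to 16.9%) in shNC. For all tested genes it was 32.0% in shTbl1xr1 and 14.2% in shNC, or 10.97% in shNC for the 7008 genes in the members' range of levels. Counts per member and library ran from 94 (Mrpl3 in shTbl1xr1 2) to 5067 (Mrpl12 in shTbl1xr1 4). Of the 13 members whose human counterparts cause combined oxidative phosphorylation deficiency, 11 had positive log2 fold changes. At edgeR's unadjusted p under 0.05, 1 of them was higher and 0 were lower, against 7.90% and 3.71% of all tested genes. Their medians were 0.39 over all libraries, 0.83 in the shallow pair and -0.21 in the deeper pair.

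Medians of mitochondrial ribosomal protein genes with other symbols lay near those of the members, and medians of factors that assemble and serve the ribosome lay near 0. With the length trend removed, medians were 0.09 for members and 0.07 for the genes with other symbols. In that fit they were -0.08 for assembly factors, -0.04 for translation factors and 0.03 for genes that charge mitochondrial tRNAs. Members and these factors thus lay closer together than without that step, and differences between these groups were not tested. Of Dap3, Ptcd3, Chchd1, Aurkaip1 and Gadd45gip1, 4 of 5 were positive, with medians of 0.39 over all libraries, 0.85 in the shallow pair and -0.14 in the deeper pair. Over all libraries 1 of the 5 had an unadjusted p under 0.05, and it was higher, as were 7.90% of all tested genes. Gadd45gip1, which sits at the exit of the large subunit's peptide tunnel, had 154, 161, 51.5 and 42.3 CPM in shTbl1xr1 1 to 4, against 60.3, 52.0, 46.7 and 51.4 CPM in shNC 1 to 4 (log2 fold change 0.95, SE 0.42, edgeR adjusted p = 0.426). As in most members, the shallow libraries were high and the other pair was not above the controls.

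Among 26 tested assembly factors 13 were positive, and the median log2 fold change was 0.00. At an unadjusted p under 0.05, 3 were higher and 0 lower, against 7.90% and 3.71% of all tested genes. In the shallow pair 8 of these 26 rose and 0 fell by the edgeR test, against 21.5% and 21.1% of genes, with a median of 0.07. Mpv17l2, which is needed to build the ribosome, had 34.1, 25.1, 14.6 and 13.1 CPM in shTbl1xr1, against 13.8, 12.2, 10.4 and 13.9 CPM in shNC (log2 fold change 0.77, SE 0.30, edgeR adjusted p = 0.406). Of 15 translation factors 7 were positive and 0 had an unadjusted p under 0.05, with medians of -0.01 over all libraries and 0.08 in the shallow pair. In that pair 6 rose and 4 fell by the edgeR test, against 21.5% and 21.1% of all tested genes. Mtif2, the initiation factor that brings the first tRNA to the ribosome, was among those that fell there (-0.86, adjusted p = 0.00351). It had 14.9, 10.9, 19.1 and 22.0 CPM in shTbl1xr1, against 22.1, 25.7, 24.4 and 21.7 CPM in shNC, with a log2 fold change of -0.47 over all libraries (SE 0.21).

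Genes that charge mitochondrial tRNAs were split, with 11 of 20 positive and a median of 0.05. At an unadjusted p under 0.05, 1 was higher and 0 were lower, against 7.90% and 3.71% of all tested genes. Fars2, the mitochondrial phenylalanyl-tRNA synthetase, had 41.7, 38.2, 28.5 and 25.4 CPM in shTbl1xr1, against 21.8, 22.6, 23.5 and 22.9 CPM in shNC. Like Mrps36 it was above every control in all 4 shTbl1xr1 libraries (log2 fold change 0.55, SE 0.18, edgeR adjusted p = 0.346). Of the 20 genes, 1 lay higher and 1 lower without overlap, against 3.88% and 3.37% of all tested genes. For the transcription of mitochondrial DNA 2 of 6 tested genes were positive, 0 had an unadjusted p under 0.05 and the median was -0.04, with Mterf1a, a termination factor, at -0.61 (SE 0.40) and levels of 0.25 to 1.11 CPM in shTbl1xr1 and 0.932 to 1.53 CPM in shNC.

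Regulators of mitochondrial biogenesis had 4 of 9 positive log2 fold changes and a median of -0.03. At an unadjusted p under 0.05, 1 was higher and 1 lower, against 7.90% and 3.71% of all tested genes. Pprc1, a coactivator of the PGC-1 family, had 8.51, 11.6, 17.1 and 15.3 CPM in shTbl1xr1, against 16.2, 20.8, 20.8 and 18.7 CPM in shNC (log2 fold change -0.53, SE 0.22, edgeR adjusted p = 0.414). Myc, a transcription factor of growth, had 8.01, 4.28, 10.2 and 39.4 CPM in shTbl1xr1, against 4.52, 5.68, 6.93 and 4.39 CPM in shNC. It was high in shTbl1xr1 4, the library where the median member was lowest (log2 fold change 1.56, SE 0.59, edgeR adjusted p = 0.405). Gabpa, Nrf1 and Yy1, which encode the factors of the motifs above and were named after their values were seen, had log2 fold changes of -0.26, -0.36 and 0.02.

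Transcripts that the mitochondrial ribosome translates were higher in the same libraries as the members. All 13 mitochondrially encoded protein genes had positive log2 fold changes, with medians of 1.33 over all libraries, 2.05 in the shallow pair and -0.14 in the deeper pair. Over all libraries 7 of them were higher at an unadjusted p under 0.05, against 7.90% of all tested genes, and 0 had an adjusted p under it. In the shallow pair all 13 rose by the edgeR test, against 21.5% of genes. mt-Nd6, a subunit of complex I, had 1573, 1558, 161 and 335 CPM in shTbl1xr1, against 357, 229, 263 and 288 CPM in shNC (log2 fold change 1.67, SE 0.64, edgeR adjusted p = 0.405). It lies on the strand of mitochondrial DNA opposite its neighbours, so without a known strand setting its counts are uncertain.

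**Figure D5:**
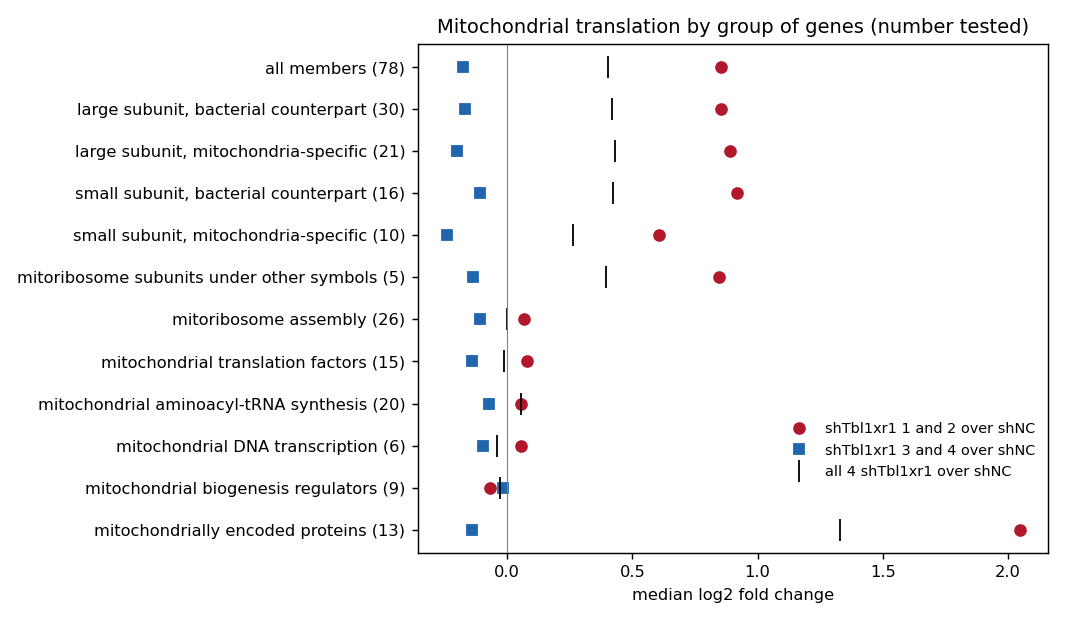
Median log2 fold change over shNC (x axis) of the members, of their roles and of other groups of genes of mitochondrial translation (y axis, number of tested genes in parentheses), in shTbl1xr1 1 and 2 (red circles), in shTbl1xr1 3 and 4 (blue squares) and over all 4 shTbl1xr1 libraries (black bars). Members stand at 0.85, -0.18 and 0.40, and assembly factors at 0.07, -0.11 and 0.00. The length trend was not removed from these values.

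Markers of macrophages, endothelial cells and stellate cells were low in the shallow libraries, where the members were high, while those of bile duct and red blood cells lay within the shNC range there. Macrophage markers (8 of 8 tested) summed to 190 and 205 CPM in shTbl1xr1 1 and 2, to 490 and 549 CPM in shTbl1xr1 3 and 4, and to 434 to 712 CPM in shNC. Endothelial markers (8 of 8) summed to 145 and 126, to 268 and 259, and to 224 to 261 CPM, and stellate cell markers (8 of 8) to 120 and 118, to 505 and 284, and to 263 to 446 CPM, in the same order. Hepatocyte markers summed to 78012 and 88233, to 52922 and 76182, and to 55490 to 72370 CPM. Cholangiocyte markers (6 of 7 tested) summed to 37.0 and 54.9, to 236 and 59.7, and to 31.7 to 118 CPM. Red blood cell markers (5 of 6) gave 737 and 685, 998 and 444, and 474 to 1422 CPM. Neutrophil markers (4 of 6) gave 2.38 and 3.86, 16.1 and 7.16, and 3.74 to 9.07 CPM, and lymphocyte markers (2 of 7) 1.63 and 1.24, 0.901 and 2.18, and 2.48 to 3.26 CPM, so lymphocyte markers were below the shNC range in all 4 shTbl1xr1 libraries. The part of cell makeup in the members' values was not tested, and in whole liver fewer cells of a type and less RNA per cell cannot be told apart.

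Members lay on 17 chromosomes, with 11 on chromosome 11, 8 on chromosome 17 and 7 on chromosome 6. Of the 78, 18 (23.1%) had a divergent neighbour, against 10.1% of tested protein-coding genes. Such a neighbour is a protein-coding gene on the other strand that starts within 1000 bases upstream of the gene's own start. Genes on opposite strands whose transcripts overlap at their starts, such as Mrps11 and Mrpl46, were not counted. Mrps18b and its neighbour Ppp1r10, 45 bases apart, had log2 fold changes of 0.69 and -0.66. Mrps27 and Ptcd2, 81 bases apart, had -0.20 and 0.01, and Mrpl50 and Zfp189, 83 bases apart, had -0.22 and -0.42. These pairs were chosen after their values were seen, and among the 18 both equal and opposite signs occur. Exons of 23 members overlap a tested gene, so reads there may be shared between them. The share of all tested genes with such an overlap was not counted. Another sign of sharing, counts that are not whole, was found in at least 1 library for 27 members and in 0 libraries for 51. Such counts were found for 30.2% of all tested genes, so members stand near the genes at large. The values of the 27 are less certain.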

How the data were processed

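RNA of 8 mouse liver libraries, 4 per group, was sequenced. Per the file headers, each deposited table gives the authors' expected count per gene, which need not be whole, with TPM and FPKM derived from it by length and library total. FPKM was not used. STAR, RSEM and DESeq2 1.30.1 and the build mm10 are named in the submitters' processing notes. Options, strand setting and annotation were not given in the sources used here. As background, RSEM divides reads shared by similar genes, which can move counts between them.

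Expected counts were rounded, filtered with filterByExpr (13908 genes kept), scaled by TMM and compared with edgeR 4.0.16 (R 4.3.3) by the quasi-likelihood test without covariates, with Benjamini-Hochberg adjustment over all genes tested and a threshold of 0.05. Levels relative to shNC used log2 CPM with a prior count of 2. DESeq2 1.42.0, sva 3.50.0 and other scalings were alternatives. Identifiers were matched to GENCODE release 21 (54349 with the version and 55141 of 55401 without), gene lengths are means of the deposited length column, and promoter windows came from RefSeq on GRCm38.p6. In simulated counts for shTbl1xr1 against shNC over 13908 genes, edgeR recovered 12% of 100 genes changed 2-fold and 71% of 100 changed 4-fold. Of its calls there, 4.6% were false. Each gene was simulated on its own, without the split between shallow and other shTbl1xr1 libraries that genes share here. The rates therefore need not hold for the real libraries. No library pair agreed within sampling noise.

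Members, gene lists and rules were chosen with earlier results of these data known. The rule named the 8 members with the smallest p in each direction, any whose groups do not overlap, the 5 highest and 5 lowest by TPM in shNC, Mrps18a, Mrps18b, Mrps18c, Mrpl12, Mrps36, Mrpl58 and Mrps30, Tbl1xr1, and per gene list the smallest p in each direction under 0.05, or otherwise the smallest. Other members and genes named in the text, such as Mrps28, Mrpl46, Gabpa and neighbouring genes, were chosen after their values were seen.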

Additional observations from a re-analysis of the deposited data

Results flagged for a closer look

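In 68 groups of 4 libraries that were checked for a single library far from the other 3, 2 stood out, and chance alone picks about 1 in 20 such groups. Mrps15 had 26.6 CPM in shNC 1, against 22.6, 22.4 and 22.4 CPM in shNC 2, 3 and 4. Myc had 39.4 CPM in shTbl1xr1 4, against 8.01, 4.28 and 10.2 CPM in shTbl1xr1 1, 2 and 3.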

How the results depend on the processing

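Results are given as counts of all genes called higher and lower by adjusted p (6 and 1 as reported), members at an unadjusted p under 0.05 (10 and 0), members whose groups do not overlap (1 and 0) and the median member log2 fold change (0.40). With DESeq2, 245 genes were higher and 46 lower, 1 member was called higher, and Tbl1xr1 passed (-2.13, adjusted p = 0.00879). With libraries scaled by size alone, 3 genes were higher, 1 member (1.28%) was higher and 6 (7.69%) were lower by unadjusted p, against 1.81% and 6.38% of genes, 9 members lay below without overlap, against 6.99% of genes, and the median was -0.0036. Upper quartile scaling gave 5 members higher (6.41%), against 5.58% of genes, 2 below without overlap (2.56%), against 4.97%, and a median of 0.31. Without the filter on low counts 12 genes were higher. With 1 surrogate variable, 40 genes were higher and 4 lower, 1 member (1.28%) was higher and 8 (10.3%) were lower by unadjusted p, against 7.89% and 5.24% of genes, the median was -0.10 and Tbl1xr1 passed (-1.56, adjusted p = 0.0234). With the length trend removed, 26 genes were higher and 3 lower, 3 members (3.85%) were lower at an unadjusted p under 0.05, against 5.10% of genes, 3 (3.85%) lay above and 4 (5.13%) below without overlap, against 5.71% and 3.75% of genes, and the median was 0.0869. On deposited TPM, an alternative chosen after seeing the data, 10 members lay below without overlap (12.8%), against 5.72% of genes, and the median was -0.19. With shTbl1xr1 3 and 4 only, 0 genes were lower, 1 member was higher and 12 lower, 30 lay below without overlap and the median was -0.18. With the shallow shTbl1xr1 pair only, 3073 genes were higher and 3021 lower by edgeR. There 68 members were called higher and 1 lower, against 21.5% and 21.1% of genes. At an unadjusted p under 0.05 there were 69 and 1, against 24.8% and 26.7% of genes. Without overlap there were 71 and 1, against 28.7% and 32.8% of genes. The median was 0.85 and Tbl1xr1 passed (-3.88, edgeR adjusted p = 6.6e-05). The labels do not say whether replicate numbers pair the libraries. Same-numbered libraries had correlations of 0.38, -0.07, 0.30 and 0.12. Their own number was the best match for shTbl1xr1 1 and 3, while shTbl1xr1 2 and 4 correlated best with shNC 1 and 3. Since shTbl1xr1 1 and 2 shared a best match, as did 3 and 4, this check cannot tell whether libraries were paired. With the replicate number as a block, 4 genes were higher and 1 lower, 6 members (7.69%) were higher by unadjusted p, against 6.21% of genes, 0 were lower, against 5.22%, and the median was 0.31.

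Leaving out 1 library at a time gave 0 to 28 genes higher and 0 to 6 lower, and a member median of 0.20 to 0.60. At edgeR's unadjusted p under 0.05, 1 to 41 members were higher and 0 to 1 lower, against 4.47% to 15.5% and 2.07% to 11.1% of genes. Without overlap, 1 to 5 members (1.28% to 6.41%) lay above, against 4.54% to 9.55% of genes. Another 0 to 2 members (0% to 2.56%) lay below, against 4.09% to 11.2% of genes. The median was 0.20 and 0.28 without shTbl1xr1 1 or 2 and 0.56 and 0.60 without shTbl1xr1 3 or 4, with 36 (46.2%) and 41 (52.6%) members higher by unadjusted p in the last 2 fits, against 12.2% and 15.5% of genes. In each fit that left out 1 library, 0 members passed the adjusted threshold. edgeR called 0 genes in the fits that lack shNC 1, 2 or 4. At an unadjusted p under 0.05 those fits had 844, 631 and 644 higher genes, and 372, 297 and 292 lower ones. With 1 library left out, the log2 fold changes of Mrpl18 ran from -0.11 to 0.11, of Mrpl47 from -0.19 to 0.0859 and of Mrps22 from -0.16 to 0.0823, so their sign turned.

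Single genes changed sign as follows. With 1 surrogate variable the log2 fold changes were -0.17 for Mrpl52, -0.24 for Mrpl17, -0.0573 for Mrps30, -0.068 for Mrpl19, -0.31 for Mrps18c, -0.065 for Mrpl58 and -0.0416 for Gadd45gip1. With DESeq2's size factors Mrpl18 had 0.0013. In shTbl1xr1 3 and 4 only they were -0.0599 for Mrps21, -0.0039 for Mrpl54, -0.0052 for Mrps18b, -0.27 for Mrpl52, -0.32 for Mrpl17, -0.0557 for Mrpl12, -0.05 for Mrpl35, -0.11 for Mrps30, -0.12 for Mrpl19, -0.40 for Mrps18c, -0.16 for Mrpl58, -0.17 for Gadd45gip1 and -0.20 for mt-Nd6. With the length trend removed they were -0.0591 for Mrpl52, -0.10 for Mrpl17 and -0.16 for Mrps18c. By library size alone they were -0.0338 for Mrpl17, -0.0934 for Mrps9, -0.0243 for Mrps30, -0.16 for Mrpl19 and -0.046 for Mrps18c. In the shallow pair only they were 0.0309 for Mrps31, 0.0566 for Mrpl1, 0.24 for Mrps22, 0.21 for Mrpl47 and 0.21 for Mrpl18. The causes of these changes were not tested. Adding pseudogene counts to Mrps36, Mrpl23 and Mrpl48 left each count above as it was apart from 11 members higher at an unadjusted p under 0.05. Depth limits shTbl1xr1 1 and 2 most, where members had the fewest counts.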
